A study of Drosophila melanogaster with 10 samples.

Results

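Glutathione S-transferase genes were followed through the heads of 2 Drosophila melanogaster strains, Z30 and Fr, and of 6 lines that carry mixtures of their chromosomes. Members were all probe sets that map to a single gene whose current symbol is Gst followed by the letter D, E, O, S, T or Z and a digit, or is Mgstl. The rule used no measured value, but the members were chosen with earlier results of these data known. The rule gave 39 probe sets of 35 genes, out of 13966 on the array that are no controls. The annotation holds 36 such genes, and GstT1 was not analysed here. The 35 genes were 11 of the delta class, 14 of the epsilon class, 3 of the omega class, 3 of the theta class, 2 of the zeta class, the sigma gene GstS1 and the microsomal gene Mgstl.

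Each of the 10 arrays held RNA from 100 to 200 heads of nonvirgin females aged 3 to 5 days. The labels name behavioural differentiation between the Z and M types of fly as the subject of the study. Strain Z30, with all 3 large chromosomes from Z30, and strain Fr, with none, had 2 arrays each. The lines ZZM, ZMZ, MZZ, ZMM, MZM and MMZ had 1 array each, and their names spell out, in the order of the X, the second and the third chromosome, whether it came from Z30 (Z) or Fr (M). No treatment, transgene or mutation is labelled for any group, and the origin of the fourth chromosome is not labelled. For each of the 3 chromosomes, 5 arrays thus held the Z30 copy and 5 the Fr copy. Each such group held both arrays of 1 parent, so its 5 arrays are not 5 genotypes. The origins of the other 2 chromosomes were not balanced between the groups. Fitted differences by chromosome origin allow for those origins, while the means of 5 arrays do not. Heads were pooled within each sample, and with 1 array a line allows no test by itself.

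Glutathione S-transferases join the tripeptide glutathione to reactive or fat-soluble compounds, which makes these compounds easier to expel from the cell. The delta and epsilon classes are the large insect classes, lie in tandem clusters, and are best known for insecticide metabolism and the response to oxidants. The omega, theta, zeta and sigma classes are shared with other animals, and the microsomal enzyme belongs to a separate family of membrane proteins. In the fly, the delta genes lie on chromosome arm 3R, the omega genes on 3L, the epsilon genes and GstS1 on 2R, and Mgstl on X.

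Signals were on the linear scale of the deposited table, on which 38.9 was taken as the floor below which values were not ordered. Tests ran on the floored log2 signal of the 8379 probe sets with a mean log2 value above 6.93. Of the members, 31 probe sets of 27 genes were tested. The other 8, of GstE7, GstE10, GstE11, GstD4, GstD5, GstD6, GstD7 and GstD11, were too dim and are given by their signals. All differences are Z30 minus Fr on the log2 scale, and a call is an adjusted p under 0.05 from limma. Counts at an unadjusted p under 0.05 are not calls. The share of all tested probe sets at that cut was not taken.

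Z30 1 and Fr 1 were unlike the other 8 arrays. Their highest signals were 28894.6 on Z30 1 and 26039.0 on Fr 1, against 46285.0 to 59814.5 elsewhere, and their median rank correlations with the other arrays were 0.864 and 0.885. That of MZM was 0.905 and those of the remaining 7 were 0.929 to 0.945. Results are therefore given with and without these 2 arrays as a block. Photoreceptor genes (Arr1, Arr2 and trp) were bright on every array, and the female yolk protein genes Yp1, Yp2 and Yp3 were too. Of 5 markers of male reproductive tissue and egg chambers, 1, the accessory gland gene Acp26Aa, was at the floor on all 10 arrays, while the accessory gland gene SP had 85.0 to 273.3 and the eggshell gene Cp36 74.9 to 559.7. The 3 measured antennal markers were too dim to test.

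**Figure D1:**
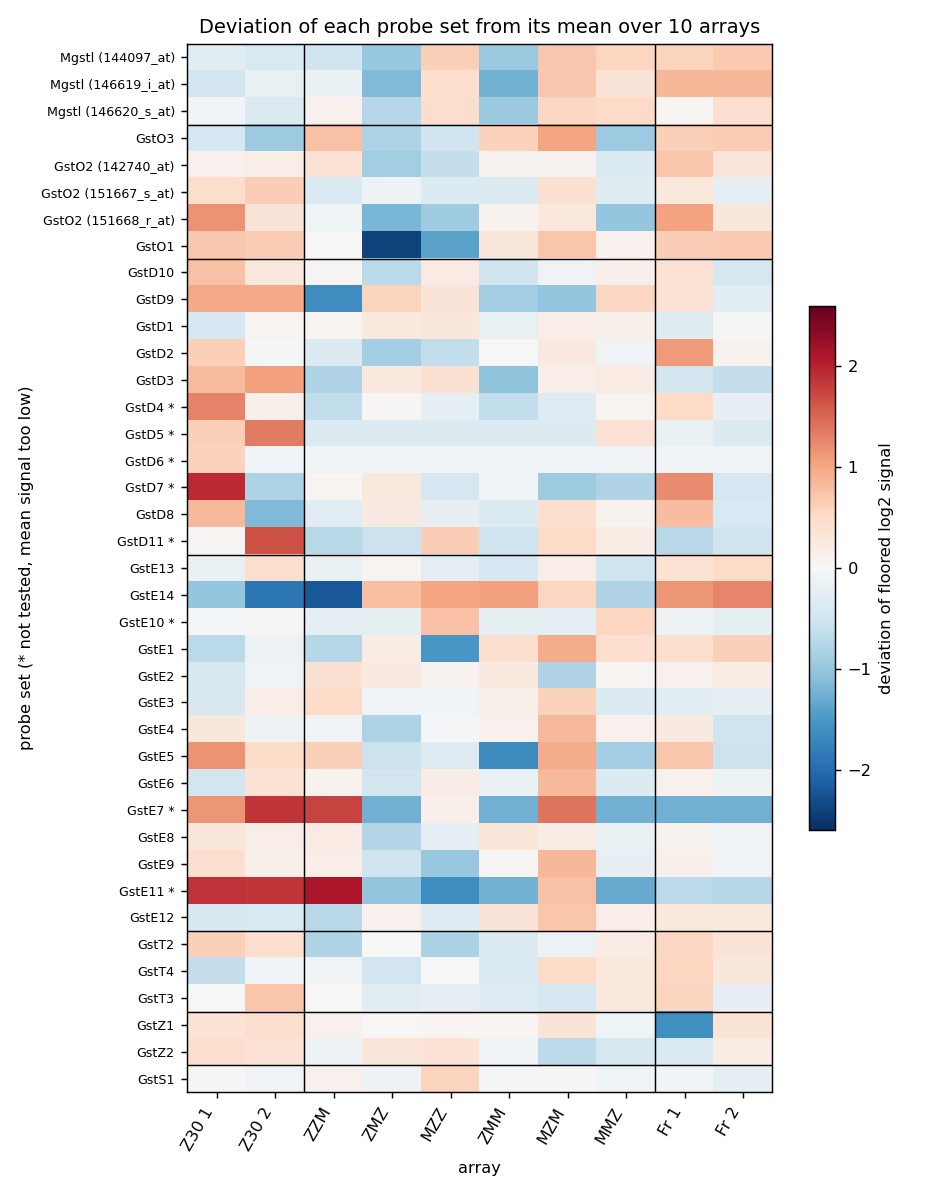
Colour map of the floored log2 signal of each of the 39 probe sets (rows, by class) on each of the 10 arrays (columns, Z30 at the left, Fr at the right), as the deviation in log2 units from the probe set's mean over the arrays. GstE7 and GstE11 stand out as high on both Z30 arrays and on ZZM, and GstO1 as low on ZMZ and MZZ.

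Between the parents, the members split nearly evenly in direction but lay further apart than most probe sets. Of the 31 tested, 17 were above 0 and 14 below, and the median difference was 0.02, against 0.02 over all tested probe sets. The median size of the difference was 0.43 among the members and 0.26 over all. With 2 arrays a strain, limma called 0 of the 31, beside 0.0358% of all tested. Before adjustment, 8 of the 31 were under 0.05. With Fr 1 and Z30 1 as a block, 10 of the 31 were called, beside 6.58% of all. The 3 probe sets higher in Z30 were of GstD3, GstD9 and GstZ1, beside 2.82% of all. The 7 lower ones were of GstE14, GstO3, GstE1, GstE12 and all 3 of Mgstl, beside 3.76% of all. The blocked fit leaves 1 residual degree of freedom, so its spread comes from the trend over genes. Without that trend it called only GstE14 among the members, beside 0.561% of all. With the dim probe sets added back it called 0 of the 39, beside 0% of all, and 9 members had an unadjusted p under 0.05. Between the same arrays the 3 glial markers summed to 1974.6 and 1501.8 in Z30 and to 1218.3 and 794.7 in Fr. The glial difference lay mostly in nrv2, at 2.30 on the log2 scale, against 0.257 for repo and 0.165 for moody. The 3 measured muscle markers summed to 1639.7 and 1691.7 in Z30 and to 2105.0 and 3640.6 in Fr. The muscle markers did not share a direction. TpnC41C had a difference of -0.92 and Act88F 0.16, and the 2 probe sets of up had -0.78 and 0.70. The part of glial and muscle RNA in the members' differences was not tested.

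Mgstl encodes a microsomal glutathione transferase, an enzyme embedded in membranes. Its probe set 144097_at had signals of 4431.8 and 4098.6 on the Z30 arrays, 3796.1 on ZZM, 2716.5 on ZMZ and 2782.6 on ZMM, the 5 arrays with the X chromosome from Z30. On the arrays with the Fr X it had 8323.1 on MZZ, 8788.1 on MZM, 7920.6 on MMZ, and 8097.2 and 8709.5 on the Fr arrays. The lowest Fr-origin signal was thus well above the highest Z30-origin signal, and the lines ZMZ and ZMM were the lowest of all. The means were 3565 ± 778 with the X from Z30 and 8368 ± 377 with the X from Fr (SD, n = 5 each). The fitted difference was -1.32 ± 0.16 (SE), a 2.50-fold lower level with the Z30 X, with limma's adjusted p = 0.0203 and 0.0125 with the block. In bulk heads, fewer cells of a type and less RNA per cell cannot be told apart.

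The other Mgstl probe sets target the same gene and are not further genes. Probe set 146619_i_at had 1500.1 and 1815.4 on Z30, 1861.9 on ZZM, 942.3 on ZMZ and 890.5 on ZMM, against 2843.1 on MZZ, 3401.8 on MZM, 2635.1 on MMZ, and 3824.9 and 3802.5 on Fr. Its groups did not overlap either, with a difference of -1.33 ± 0.23 and limma's adjusted p = 0.0912. Probe set 146620_s_at had 11152.9 and 9004.0 on Z30, 12675.7 on ZZM, 6981.8 on ZMZ and 6004.5 on ZMM, against 16008.3 on MZZ, 16927.2 on MZM, 16866.7 on MMZ, and 12370.0 and 15944.2 on Fr. Here ZZM lay above Fr 1, so that the groups overlapped, and the difference was -0.91 ± 0.20 (limma's adjusted p = 0.396). All 3 probe sets were lower with the Z30 X, and 1 of them passed the test.

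That single call was the only one among the 31 tested members for the X chromosome, beside 0.0597% of all tested probe sets (0.107% with the block). It was lost when any 1 array other than Z30 1 was left out, with adjusted p between 0.0504 and 0.214. Over all 10 such omissions the difference was between -1.42 and -1.25. It was also lost without the 2 arrays that stood apart (adjusted p = 0.0572), under quantile scaling (0.0581), and without the filter on dim probe sets (0.053). Between the parents alone the difference of 144097_at was -0.98 ± 0.27, with -0.87 between Z30 1 and Fr 1 and -1.09 between Z30 2 and Fr 2. Its adjusted p from limma was 0.731, 1.28e-06 with the block, and 0.196 with the block but without the variance trend. In the 6 lines alone it was -1.38 ± 0.21, with 3098 ± 605 on the 3 lines with the Z30 X and 8344 ± 434 on the other 3 (SD, n = 3 each).

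GstT4, a theta-class gene also on X, was the other member whose groups did not overlap by origin of the X. It had 518.2 and 754.5 on Z30, 759.4 on ZZM, 560.1 on ZMZ and 621.9 on ZMM, against 793.5 on MZZ, 1112.5 on MZM, 961.9 on MMZ, and 1166.3 and 976.6 on Fr. The gap between the groups was narrow, and the difference of -0.61 ± 0.19 was not called (limma's adjusted p = 0.999). GstT3, the other theta gene on X, had 890.5 and 1475.2 on Z30, 890.7 on ZZM, 731.8 on ZMZ and 709.1 on ZMM, against 752.7 on MZZ, 652.9 on MZM, 1078.7 on MMZ, and 1331.1 and 772.7 on Fr. These groups overlapped throughout, with a difference of 0.00 ± 0.28. In all, 3 of the 39 member probe sets separated the origins of the X, 2 of them of Mgstl, and all 3 were lower with the Z30 chromosome. The share without overlap was 0.723% over all probe sets that are no controls, and 2.69% over those of genes on X. Only the 3 Mgstl probe sets, GstT4 and GstT3 are members on X, the like set for the second share.

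**Figure D2:**
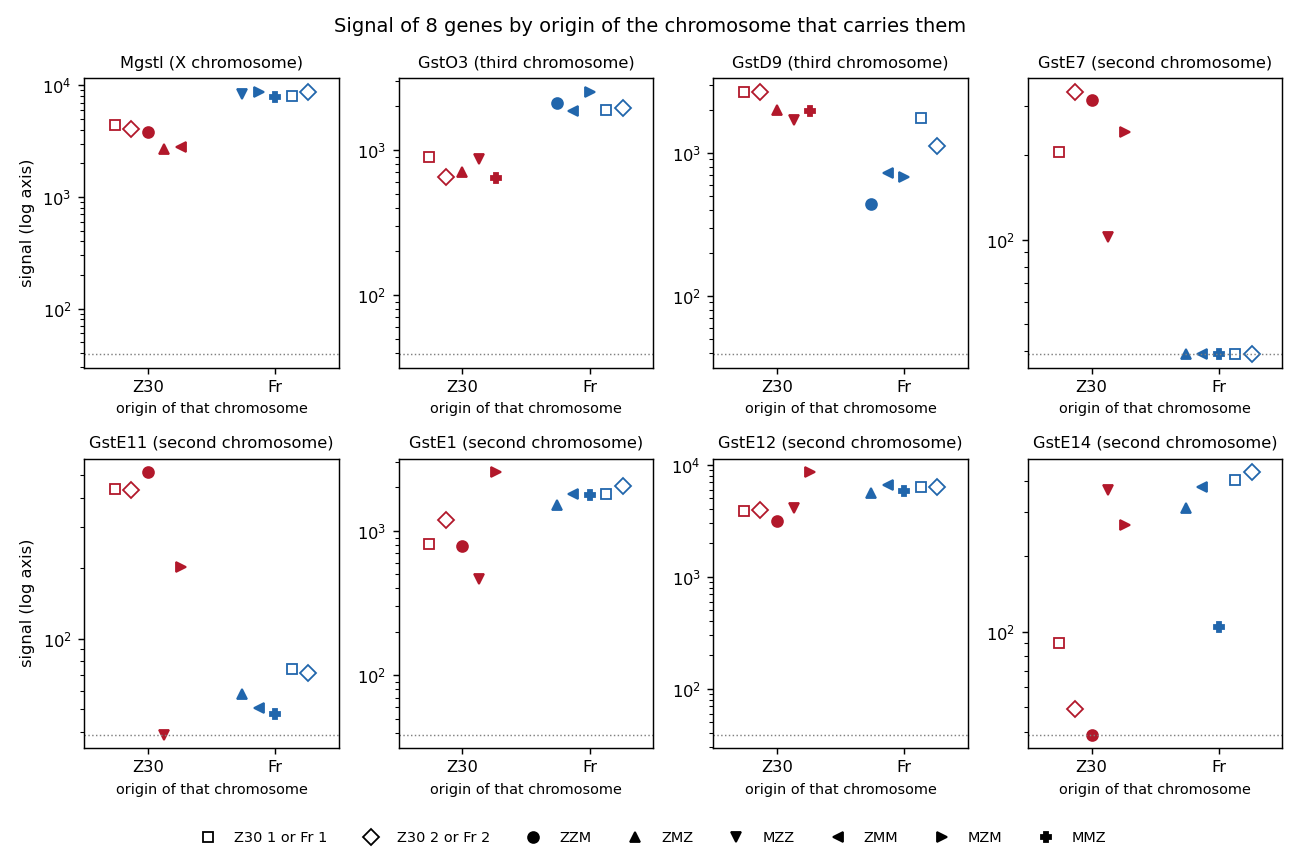
Signal (log axis) of 8 genes on each of the 10 arrays, by origin of the chromosome that carries the gene, Z30 at the left and Fr at the right. Open squares and diamonds are the parents' arrays 1 and 2, filled symbols the 6 lines, and the dotted line is the floor of 38.9. Mgstl is shown by probe set 144097_at. Mgstl, GstO3 and GstE7 fall into separate groups, while GstE14 has MZZ and MZM high among the Z30-origin arrays and MMZ low among the Fr-origin arrays.

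The omega class is known for thiol transfer and reduction rather than conjugation. GstO3, on 3L, had 900.1 and 646.6 on the Z30 arrays, 709.1 on ZMZ, 870.4 on MZZ and 645.4 on MMZ, the 5 arrays with the third chromosome from Z30. With the third chromosome from Fr it had 2117.8 on ZZM, 1870.0 on ZMM, 2529.2 on MZM, and 1898.3 and 1962.7 on Fr. The 2 groups lay far apart, and parents and lines of the same origin lay together. The means were 754 ± 123 and 2076 ± 271 (SD, n = 5 each), and the difference of -1.50 ± 0.17 was a 2.83-fold lower level with the Z30 chromosome (limma's adjusted p = 0.00639, and 0.00345 with the block). Without MMZ the adjusted p was 0.0847, and in the 6 lines alone 0.297, at differences of -1.45 and -1.47. Between the parents the difference was -1.34 ± 0.30, with -1.08 and -1.60 within the 2 pairs of arrays.

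GstO3 was the only called member for the third chromosome among 31, beside 0.0955% of all tested probe sets, and 0.406% with the block, under which GstD9 was called too. Of 3 listed fat body markers, 2 were measured, Lsp2 and fit, neither was at the floor, and they went opposite ways. Lsp2 had 728.0 on ZMZ, 696.5 on MZZ and 482.0 on MMZ, against 27646.2 on ZZM, 28017.6 on ZMM and 23980.1 on MZM, and in the parents 1159.8 and 2204.1 in Z30 and 1912.8 and 8602.0 in Fr. Its difference was -4.28 with the origin of the third chromosome, on which it lies. The difference of fit was 0.61, and its signals overlapped, with 8207.7 to 15799.3 on ZMZ, MZZ and MMZ and 6234.1 to 10016.2 on ZZM, ZMM and MZM. The summed signal of both ran from 8904.2 to 23461.9 with the third chromosome from Z30 and from 10371.2 to 34596.0 with that from Fr. The part of fat body RNA in the differences of GstO3 and the other members was not tested.

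The 5 omega probe sets of 3 genes had a median third-chromosome difference of -0.76, against 0.04 over all tested, with 4 of 5 below 0. It was -1.24 in the 6 lines alone, with 5 of 5 below 0, and when single arrays were left out it ran from -1.18 without ZZM to -0.48 without ZMZ. The other omega genes did not separate the origins as GstO3 did, and no other omega probe set was called. GstO1 had 336.6 and 325.7 on Z30, 18.7 on ZMZ, 79.1 on MZZ and 224.9 on MMZ, against 206.9 on ZZM, 253.4 on ZMM, 340.5 on MZM, and 322.0 and 331.7 on Fr. The parents were alike, and the 2 lowest arrays were lines with the third chromosome from Z30, ZMZ being below the floor. Its third-chromosome difference was -0.99 ± 0.59 over 10 arrays and -2.40 ± 0.52 in the 6 lines (limma's adjusted p = 0.364 in the lines). 

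GstO2 has 3 probe sets that disagreed. Probe set 142740_at had 547.7 and 571.3 on Z30, 270.5 on ZMZ, 326.3 on MZZ and 393.0 on MMZ, against 657.9 on ZZM, 534.7 on ZMM, 538.2 on MZM, and 825.3 and 622.5 on Fr. Probe set 151668_r_at had 279.0 and 156.2 on Z30, 54.1 on ZMZ, 65.1 on MZZ and 61.9 on MMZ, against 114.7 on ZZM, 131.4 on ZMM, 148.9 on MZM, and 254.5 and 151.5 on Fr. In both, the 3 lines with the third chromosome from Z30 were the lowest arrays, while the Z30 parent was not. Probe set 151667_s_at had 2212.2 and 2536.9 on Z30, 1485.5 on ZMZ, 1264.0 on MZZ and 1307.8 on MMZ, against 1257.7 on ZZM, 1261.9 on ZMM, 2146.0 on MZM, and 1956.6 and 1368.1 on Fr, and did not share that order. The differences with the origin of the third chromosome were -0.68 ± 0.27, -0.76 ± 0.51 and 0.06 ± 0.26, and none was called.

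The delta cluster on 3R holds GstD1, known in flies for acting on the insecticide DDT, and 10 relatives. GstD1 had 9594.2 and 13638.7 on Z30, 15430.8 on ZMZ, 15771.9 on MZZ and 14207.5 on MMZ, against 13521.1 on ZZM, 11357.1 on ZMM, 14478.3 on MZM, and 10346.7 and 12540.1 on Fr. The 2 origins overlapped. The difference was 0.01 ± 0.32 in the parental comparison and 0.14 ± 0.19 for the third chromosome. GstD9 and GstD3 stood out from the other delta genes.

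GstD9 had 2666.9 and 2689.8 on Z30, 2006.3 on ZMZ, 1697.7 on MZZ and 1969.3 on MMZ. With the third chromosome from Fr it had 442.0 on ZZM, 726.2 on ZMM, 676.8 on MZM, and 1750.3 and 1118.0 on Fr. Only Fr 1 reached into the range of the Z30-origin arrays, just above MZZ. The means were 2206 ± 447 and 943 ± 513 (SD, n = 5 each) and the difference was 1.48 ± 0.33, with limma's adjusted p = 0.192, and 0.0315 with the block. With the block but without the variance trend it was 0.0722. In the lines alone GstD9 was at 1891 ± 169 with the third chromosome from Z30 and 615 ± 152 with that from Fr (SD, n = 3 each), and these groups did not overlap. Between the parents the difference was 0.94 ± 0.32, with 0.61 and 1.27 within the 2 pairs of arrays. Limma's adjusted p for the parents was 1, 0.00197 with the block, and 0.237 with the block but without the variance trend.

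GstD3 had 2555.0 and 3003.8 on Z30, 1717.4 on ZMZ, 1888.5 on MZZ and 1678.4 on MMZ, against 843.9 on ZZM, 702.9 on ZMM, 1622.5 on MZM, and 1038.7 and 946.2 on Fr. The groups by origin of the third chromosome did not overlap, although MZM came within a small margin of MMZ. The means were 2169 ± 585 and 1031 ± 354 (SD, n = 5 each), a difference of 1.03 ± 0.23, with limma's adjusted p = 0.204 and 0.115 with the block. Between the parents GstD3 was 2.79-fold higher in Z30, a difference of 1.48 ± 0.28 with 1.30 and 1.67 within the pairs. Limma's adjusted p for the parents was 0.348, 8.45e-08 with the block, and 0.0724 with the block but without the variance trend. GstD3 and GstO3 were the 2 members of 39 that separated the origins of the third chromosome, beside 1.13% of all probe sets that are no controls and 2.16% of those of genes on that chromosome. The members on it, the like set for the second share, were 11 delta, 5 omega and 2 zeta probe sets.

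The remaining delta genes varied without a shared direction. GstD2, GstD8 and GstD10 were tested and had, with the origin of the third chromosome, differences of -0.38 ± 0.36, -0.01 ± 0.41 and 0.22 ± 0.31. GstD4, GstD5, GstD6, GstD7 and GstD11 were too dim to test. GstD6 was at the floor on 9 arrays and GstD5 on 6. GstD11 had 65.4 and 201.1 on Z30 and 24.5 and 45.0 on Fr, without overlap, but 43.3 to 100.3 on the lines with the third chromosome from Z30 and 33.2 to 90.6 on those with that from Fr. Over the cluster, genes next to each other differed in what they showed: GstD9 and GstD3 lie either side of GstD1 and GstD2, which did not share their difference.

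**Figure D3:**
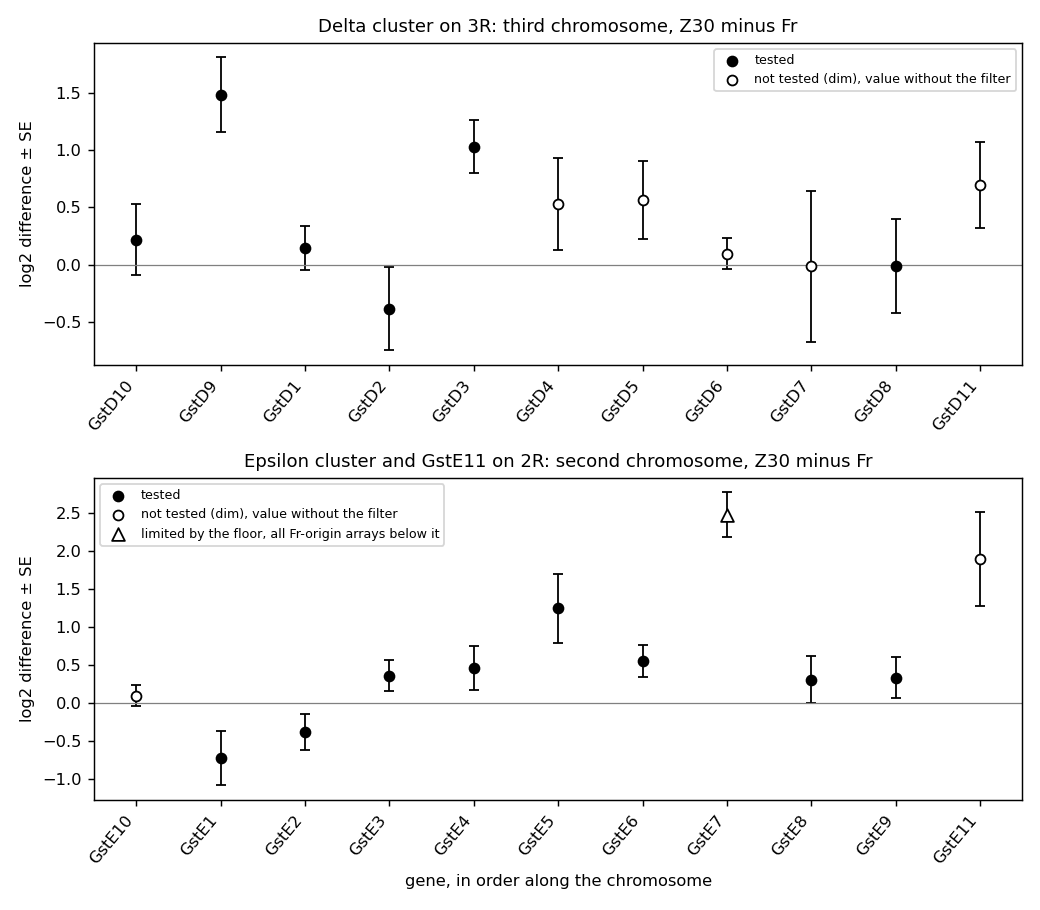
Difference in log2 units, Z30 minus Fr origin, with its standard error (bars) from the 10-array model, for the genes of the delta cluster with the origin of the third chromosome (top) and of the epsilon cluster and GstE11 with that of the second (bottom), in order along the chromosome. Open circles are probe sets too dim for the test, fitted without the filter. GstD9 at 1.48 and GstD3 at 1.03 lie above their neighbours, and GstE11 at 1.91 above its own, while GstE1 lies at -0.73. The triangle marks GstE7, whose value of 2.49 and error bar are limited by the floor, since all 5 Fr-origin arrays were below it.

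The epsilon genes on 2R include GstE14, also named Noppera-bo, which is known in the fly for its part in steroid hormone synthesis in the larval ring gland. GstE14 had 90.2 and 49.1 on Z30 and 401.0 and 433.6 on Fr, a 6.27-fold lower level in Z30. The difference was -2.65 ± 0.61, with -2.15 and -3.14 within the 2 pairs of arrays, and limma's adjusted p was 0.517, 4.6e-07 with the block and 0.0226 with the block but without the variance trend. In the lines this pattern did not follow the second chromosome. With the second chromosome from Z30 it had 28.8 on ZZM but 368.0 on MZZ and 267.1 on MZM, and with that from Fr it had 310.2 on ZMZ and 378.1 on ZMM but 104.2 on MMZ. MZZ and MZM thus lay near the Fr parent although their second chromosome came from Z30, and MMZ near the Z30 parent although its second chromosome came from Fr. The second-chromosome difference was -1.13 ± 0.63 over 10 arrays and -0.73 ± 1.10 in the 6 lines, and neither was called (limma's adjusted p = 1 for both).

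GstE7 gave the widest separation of any member by origin of the second chromosome. It had 204.6 and 337.6 on Z30, 314.5 on ZZM, 102.1 on MZZ and 242.3 on MZM. With the second chromosome from Fr it had 8.2 on ZMZ, 5.0 on ZMM, 7.6 on MMZ, and 10.6 and 11.2 on Fr, all below the floor. The Z30-origin mean was 240 ± 94 (SD, n = 5). On the log2 scale the Z30-origin mean lay 5.70-fold above the floor, which is a lower bound on the difference. This bound lay between 5.14 and 6.92 when single arrays were left out. It was 6.76-fold between the parents and 5.09-fold between the lines. GstE7 was too dim for the filter. Fitted without it, limma's unadjusted p was 5.96e-05 and the adjusted p 0.202. All 5 Fr-origin arrays were set to the floor in that fit, so these p-values do not measure the spread of that group. Glial markers (repo, nrv2 and moody, 3 of 3 measured and none at the floor) also differed by this origin, with a summed signal of 1281.3 to 1974.6 with the second chromosome from Z30 and 794.7 to 1218.3 with that from Fr. Most of this lay in nrv2, which differed by 1.63, against 0.24 for repo and 0.09 for moody. Their part in the result was not tested. GstE7 was the only 1 of 39 members that separated the origins of the second chromosome, beside 0.809% of all probe sets that are no controls and 1.53% of those of genes on that chromosome. The members on it, the like set for the second share, were 14 epsilon probe sets, GstS1 and GstT2.

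GstE11, a gene further along 2R, resembled GstE7 on most arrays. It had 436.5 and 432.5 on Z30, 517.2 on ZZM and 202.4 on MZM, but 33.6 on MZZ, which was below the floor. The arrays with the second chromosome from Fr had 58.2 on ZMZ, 50.7 on ZMM, 47.7 on MMZ, and 74.1 and 71.5 on Fr. The parents thus differed 5.97-fold, while MZZ, with the second chromosome from Z30, was the lowest of all 10 arrays. Fitted without the filter, the difference was 1.91 ± 0.62 for the second chromosome and 1.20 ± 0.62 for the X, with limma's adjusted p = 1 for both.

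GstE5, which lies near GstE7, had 465.7 and 285.9 on Z30, 318.8 on ZZM, 163.4 on MZZ and 402.8 on MZM, against 139.3 on ZMZ, 66.6 on ZMM, 111.8 on MMZ, and 341.4 and 142.4 on Fr. Fr 1 alone exceeded the lower Z30-origin arrays, and the 3 lines of each origin did not overlap. The difference of 1.25 ± 0.46 was not called (limma's adjusted p = 0.979, and 0.297 with the block).

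GstE1 and GstE12 were lower in Z30. GstE1 had 816.1 and 1194.1 on Z30, 784.7 on ZZM and 462.1 on MZZ, against 1512.9 on ZMZ, 1792.9 on ZMM, 1776.4 on MMZ, and 1787.8 and 2031.1 on Fr. MZM, with the second chromosome from Z30, had 2564.0 and was the highest of all. GstE12 showed the same outlying line. It had 3891.9 and 3962.3 on Z30, 3146.5 on ZZM, 4104.4 on MZZ and 8641.2 on MZM, against 5621.1 on ZMZ, 6567.3 on ZMM, 5844.9 on MMZ, and 6280.7 and 6310.9 on Fr. The parental differences were -0.95 ± 0.31 for GstE1 and -0.68 ± 0.26 for GstE12, with limma's adjusted p of 0.987 and 1, and 0.0045 and 0.00512 with the block. With the block but without the variance trend, limma's adjusted p was 0.207 for GstE1 and 0.339 for GstE12. Their second-chromosome differences were -0.73 ± 0.36 and -0.35 ± 0.23, and neither was called.

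GstE9 had 6230.7 and 5090.8 on Z30 and 5049.5 and 4400.2 on Fr. On the lines it ran from 2349.8 on MZZ to 8412.0 on MZM, both with the second chromosome from Z30. MZM had the highest median deviation of the tested members of any array, at 0.40, and ZMZ the lowest, at -0.29. The median deviation of all tested probe sets was 0.01 on MZM and 0.02 on ZMZ. GstE2, GstE3, GstE4, GstE6, GstE8 and GstE13 had second-chromosome differences between -0.38 and 0.55, and GstE10 was at the floor on 5 arrays.

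For the second chromosome limma called 0 of the 31 tested members, beside 0.0358% of all tested. Before adjustment, 3 were under 0.05. With the block it called 0, beside 0.155% of all, with 6 at an unadjusted p under 0.05. The members leaned to the Z30 side, with 23 above 0 and 8 below and a median of 0.27, against -0.02 over all tested. In the 6 lines alone the median was 0.02, with 17 above and 14 below. Of the 5 omega probe sets, whose 3 genes are on 3L, 5 were above 0 over the 10 arrays, 3 without ZMZ and 2 in the lines alone. For the other chromosomes the members leaned the other way. For the X, 10 were above 0 and 21 below, with a median of -0.136 against 0.002 over all tested. In the 6 lines alone 6 were above and 25 below for the X. With single arrays left out, the X median ran from -0.336 without MZZ to -0.019 without ZZM. Without ZZM, 14 were above 0 and 17 below, and the median over all tested was 0.01. For the third chromosome 11 were above and 20 below, with a median of -0.218 against 0.04 over all tested.

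With the origin of the third chromosome, all 11 tested epsilon probe sets lay below 0 although their genes are on 2R, with a median of -0.31, against 0.04 over all tested. None of the 11 was called. The direction held for 11 of 11 under quantile and under median scaling, for 10 of 11 without Fr 1 and Z30 1, for 9 of 11 without MMZ, and for 8 of 11 in the 6 lines alone, and the median was -0.20 without MZZ. Of the fat body markers given beside GstO3, Lsp2 was also lower with the Z30 chromosome and fit was not, and their part in this was not tested.

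GstZ1, a zeta-class gene on 3R whose class takes part in the breakdown of tyrosine, had 643.5 and 691.4 on Z30, 499.3 on ZMZ, 522.5 on MZZ and 466.6 on MMZ, against 542.2 on ZZM, 521.9 on ZMM, 631.2 on MZM, and 166.2 and 647.9 on Fr. Fr 1 was the lowest of all arrays by a wide margin. The difference was 1.95 between Z30 1 and Fr 1 and 0.09 between Z30 2 and Fr 2. Limma's adjusted p for the parents was 1, 0.012 with the block, and 0.374 with the block but without the variance trend. GstZ2 had 589.6 and 568.3 on Z30 and 337.2 and 500.4 on Fr, a difference of 0.49 ± 0.36. Of the sigma class, GstS1, abundant in fly flight muscle, had 1894.3 and 1804.2 on Z30, 2089.7 on ZZM, 2897.9 on MZZ and 1977.1 on MZM, against 1752.3 on ZMZ, 1894.2 on ZMM, 1788.5 on MMZ, and 1838.6 and 1618.6 on Fr. MZZ was high and the rest overlapped, and no difference of GstS1 was called. GstT2, a theta gene on 2R, averaged 228 ± 102 with the second chromosome from Z30 and 260 ± 58 with that from Fr (SD, n = 5 each).

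**Figure D4:**
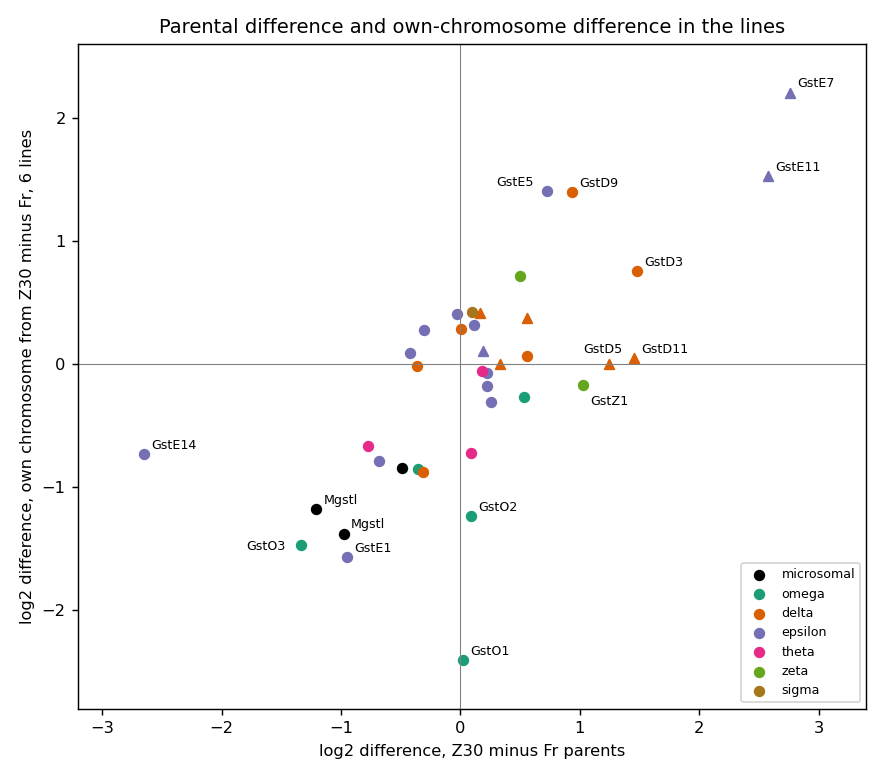
Difference between the Z30 and Fr parents (x axis, log2) against the difference with the origin of the gene's own chromosome in the 6 lines (y axis, log2), 1 point per member probe set, coloured by class. Triangles are the 8 probe sets too dim for the test. GstE7 and GstE11 lie at the upper right, GstE7 with values limited by the floor, Mgstl, GstO3 and GstE1 at the lower left, and GstO1 differs in the lines (-2.40) but not between the parents (0.02).

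The parents and the lines share no array, so the parental difference of each gene could be set beside that of its own chromosome in the lines. Over the 31 tested member probe sets, which include several of 1 gene and neighbours in clusters, Pearson's r was 0.58 and Spearman's rho 0.63, and 19 (61.3%) had the same sign. Over the 7401 tested probe sets of genes on X, 2 or 3, r was 0.29 and rho 0.22, and 57.6% had the same sign. Of the 13 members that differed by more than 0.5 between the parents, 11 (84.6%) had the same sign in the lines, against 65.0% of 1804 probe sets. These are descriptions across genes, which are not replicates. In the lines alone limma called 0 of the 31 members for their own chromosome, beside 0.0358% of all tested probe sets for the third chromosome and 0% for the first and second, and 11 of the 31 had an unadjusted p under 0.05.

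Line by line, each signal was compared with the parents to see whether it lay nearer the parent whose chromosome the line carries. All 6 lines did so for GstD3, GstO3, GstE7 and the Mgstl probe sets 144097_at and 146619_i_at. Among tested members with a parental difference over 0.5 this was 4 of 13 (30.8%), beside 5.88% of 1804 probe sets. Among all members it was 5 of 18 (27.8%), beside 4.03% of 3099. Both counts hold 2 probe sets of 1 gene, Mgstl, and the members were chosen with earlier results of these data known. MZM was the exception for GstE1 and GstE12. MZZ was the exception for GstD9, GstE5, GstE11 and GstT4. For GstE14 the exceptions were MZZ, MZM and MMZ, and for GstD10 and GstD4 they were MMZ, MZZ and ZMZ. They were MZZ and ZMZ for GstD5, and MZM and ZMZ for GstD11. For GstZ1 and for GstO2 probe set 151667_s_at they were 4 of the 6 lines.

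Genes that work beside the transferases were read from the same fits. In 7 lists (relatives outside the rule, glutathione synthesis and turnover, glutathione- and thioredoxin-dependent reduction, the Nrf2 regulators, conjugate exporters, glucuronosyltransferases, and superoxide and peroxide removal) limma called 0 of 43 tested probe sets in any of the 4 comparisons. The shares over all tested were 0.0358% for the parents and 0.0597%, 0.0358% and 0.0955% for the X, the second and the third chromosome, so lists of this size would hold few calls at those shares. At an unadjusted p under 0.05 there were 0 to 3 per list and comparison. With the block 5 of the 43 were called for the parents, beside 6.58% of all, and none of the 5 was called without the block or with the block but without the variance trend. Keap1, the repressor of the fly's Nrf2 homologue Cnc, had a parental difference of 1.33 ± 0.99, with limma's adjusted p = 1, 0.0288 with the block and 0.3 with the block but without the trend. Its signals were 389.2 and 217.6 on Z30 and 328.8 and 40.6 on Fr, which overlap. eEF1gamma, a translation factor subunit with a transferase-like domain, had a difference of 0.53 ± 0.37, with limma's adjusted p = 1, 0.00754 with the block and 0.477 with the block but without the trend. On Z30 eEF1gamma had 9349.5 and 16263.7 and on Fr 7410.1 and 9885.1, which overlap too.

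Of 14 tested glucuronosyltransferases, which attach sugars to similar compounds, the blocked fit called 1 higher and 2 lower in Z30, beside 2.82% and 3.76% of all. Without the variance trend the adjusted p was 0.134 for Ugt37A3, 0.191 for Ugt37D1 and 0.22 for Ugt49B1. Ugt37A3 had 324.6 and 235.3 on Z30 and 60.9 and 127.1 on Fr, Ugt37D1 had 188.3 and 435.5 on Z30 and 626.4 and 698.2 on Fr, and Ugt49B1 had 665.1 and 713.7 on Z30 and 1808.8 and 1091.9 on Fr. The median parental difference of this list was -0.09, against 0.02 over all tested. Gclc and Gclm, the 2 subunits of the enzyme that starts glutathione synthesis, had parental differences of -0.42 ± 0.52 and 0.38 ± 0.27. The regulator gene cnc had 0.04 and 0.35 on its 2 tested probe sets. The eye pigment enzyme gene se, an omega-class relative on 3L, had differences of 0.94 with the origin of the second chromosome and -0.82 with that of the third, with an unadjusted p under 0.05 for 1 gene of its list in each. None of the differences of Gclc, Gclm, cnc and se passed the test, with or without the block.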

How the data were processed

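The authors deposited 1 intensity per probe set and array on a linear scale. Software and settings: not given in the sources used here, per the labels. The trimmed mean was 500.1 on every array, so each had been scaled before deposit, and no background reading was used. Values under the pooled 20th percentile (38.9) were set to it, log2 of the deposited intensity was taken, and tests kept the 8379 of 13966 whose mean exceeded the 40th percentile (44 controls removed). A difference in sequence under a probe and a difference in transcript level cannot be told apart here, and close paralogs in a cluster may share signal.

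Of 14010 probe sets, 12443 had 1 gene, 327 several and 1196 none. Entrez identifiers gave current Release 6 symbols for 12394, and 49 kept their old ones. Arms came from that annotation.

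Tests used limma 3.58.1 in R 4.3.3 (eBayes with a variance trend, Benjamini-Hochberg over all tested probe sets, threshold 0.05). The parents were fitted on 4 arrays, the 3 chromosome origins in an additive model on 10 arrays, and the lines on 6 alone. The script was tested on simulated data. No label says that a parent's 2 arrays were separate cultures. The p-values then measure only the spread of these samples, perhaps a technical one. The number of arrays limits the precision. Fr 1 and Z30 1 share a replicate number, and over 8379 probe sets the correlation of their deviations from the parental means was 0.64. With 2 pairs this does not show that the number pairs the samples, and the block stands for these arrays being unlike the other 8.

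Values on every array are printed for GstO3, GstD9, GstE14 and Mgstl, members called with or without the block, the 3 members with the largest difference in each comparison, and the brightest member of each class. GstO1, GstT4, GstZ2, GstE9, the values of GstD11, and the list genes with values were named after they were seen. The members and lists were chosen with earlier results of these data known. Alternatives were other scaling, floor, filter, variance model and sets of arrays.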

Additional observations from a re-analysis of the deposited data

Results flagged for a closer look

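Groups of 5 arrays with 1 origin of a probe set's own chromosome were checked where no array was at the floor. Of 66 such groups, 7 held an array that lay apart from the other 4 by Dixon's criterion. Its nominal rate of about 1 in 20 is for like samples, while these arrays differ in their other chromosomes. The share over all probe sets was not taken, so the 7 are no excess shown for the members. The other 12 groups held arrays at the floor, where values have no order, and were not checked. Among tested probe sets, GstE14 had 104.2 on MMZ, against 310.2 to 433.6 on the other arrays with the second chromosome from Fr. GstE12 had 8641.2 on MZM, against 3146.5 to 4104.4, and GstE8 had 115.7 on MZZ, against 154.8 to 169.4, on arrays with the second chromosome from Z30. GstZ2 had 324.7 on MMZ, against 541.9 to 589.6 with the third chromosome from Z30. GstZ1 had 166.2 on Fr 1, against 521.9 to 647.9 with the third chromosome from Fr. Mgstl probe set 146620_s_at had 12370.0 on Fr 1, against 15944.2 to 16927.2 with the X from Fr. The dim probe set of GstD4 had 291.0 on Z30 1, against 100.9 to 129.6 with the third chromosome from Z30. Arrays Z30 1 and Fr 1, which stood apart from the rest, account for 3 of the 7.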

How the results depend on the processing

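Among 23 differences of named probe sets and 306 alternatives, 275 kept direction and side of the threshold, 12 passed it only there, 19 lost it, and none reversed. For the parents, 10 members were called with the replicate block and 1 with the block without the variance trend, against 0 without it, and leaving out arrays gave 0. For the X chromosome, the 1 call became 0 in the 6 lines only, in the 8 arrays other than Fr 1 and Z30 1, under median scaling, quantile scaling, no filter, no variance trend, and the replicate block without trend or without filter. Over single arrays left out it was 0 to 1. For the second chromosome every alternative gave 0, with 1 to 8 members at an unadjusted p under 0.05. For the third chromosome, 2 were called with the block, 0 in the 6 lines only, and 0 to 1 with single arrays left out, the 0 being without MMZ. The lines alone gave 0 to 9 with single arrays left out (9 without MZM or ZMZ, 1 without MZZ or ZMM). These fits had 1 residual degree of freedom. The share of all tested probe sets called in them was not taken, so these counts are no result about the members. The causes were not tested. Probe sets near the floor have bounded differences, and 8 of 39 members were too dim to test.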
